A study of Mus musculus with 6 samples.

Results

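Liver expression of 8 chemokine genes was examined in mice given LPS with GalN, set against mice given LPS alone. They comprise the neutrophil attractants Cxcl1, Cxcl2 and Cxcl5, the homeostatic ligands Cxcl12, Cxcl13 and Cxcl14, and the membrane-bound ligands Cxcl16 and Cx3cl1. The genes were taken by name, from array rows whose gene description names CXC ligand 1, 2, 5, 12, 13, 14 or 16 or CX3C ligand 1. That rule found 9 rows for 7 of the 8 genes, and 1 further row described under another wording of the Cxcl16 name was added, out of 44170 target rows on the array. No row was described as Cxcl14, which was not analysed here. All mice were male wild-type C57 BL/6, 9 to 10 weeks old, and liver total RNA was measured 2.5 h after treatment on single-colour NimbleGen arrays, 1 mouse per array. The 3 LPS/GalN mice received 0.01 μg LPS together with 20 mg GalN, and the 3 LPS mice received 0.01 μg LPS only, so every mouse carried the LPS stimulus. LPS is the bacterial endotoxin sensed by TLR4, and GalN (D-galactosamine) is an amino sugar taken up by hepatocytes that is given with LPS as a mouse model of acute liver injury. Untreated mice and mice given GalN alone were not analysed here, so each difference is that of adding GalN to LPS and not a response to LPS.

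Chemokines are small secreted proteins that steer leukocytes through G protein-coupled receptors. Cxcl1, Cxcl2 and Cxcl5 carry a glutamate-leucine-arginine (ELR) motif and recruit neutrophils through CXCR2; their genes are textbook early targets of NF-κB and are switched on in hepatocytes, macrophages and endothelium by LPS, TNF and interleukin-1. Cxcl12 and Cxcl13 are instead produced steadily by stromal and endothelial cells, Cxcl12 to retain CXCR4-bearing leukocytes and Cxcl13 to position CXCR5-bearing B cells. Cxcl16 and Cx3cl1 are made as membrane-anchored proteins that proteases can release, and act on CXCR6 and CX3CR1.

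The promoters of Cxcl1, Cxcl2 and Cxcl12 are shown here because the first 2 genes are the ones that fell and Cxcl12 is a homeostatic ligand measured beside them. Each is RefSeq sequence of assembly GRCm38.p6 on the plus strand, from 250 bases before the annotated start of the gene to 50 bases after it, at chr5:90890995-90891294 for Cxcl1, chr5:90903649-90903948 for Cxcl2 and chr6:117168285-117168584 for Cxcl12. Capitals mark the longest run of letters that the Cxcl1 and Cxcl2 promoters share upstream of the start, 14 bases long.
Cxcl1: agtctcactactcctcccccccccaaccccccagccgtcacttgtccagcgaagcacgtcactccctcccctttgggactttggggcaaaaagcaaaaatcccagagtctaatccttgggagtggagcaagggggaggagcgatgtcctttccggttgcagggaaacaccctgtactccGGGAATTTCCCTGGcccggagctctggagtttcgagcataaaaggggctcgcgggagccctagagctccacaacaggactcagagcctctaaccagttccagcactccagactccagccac
Cxcl2: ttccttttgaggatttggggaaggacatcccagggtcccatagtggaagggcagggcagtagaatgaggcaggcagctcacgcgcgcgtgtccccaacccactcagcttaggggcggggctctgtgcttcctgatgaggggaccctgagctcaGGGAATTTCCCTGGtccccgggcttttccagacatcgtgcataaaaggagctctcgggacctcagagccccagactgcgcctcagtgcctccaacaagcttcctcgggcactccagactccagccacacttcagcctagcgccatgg
Cxcl12: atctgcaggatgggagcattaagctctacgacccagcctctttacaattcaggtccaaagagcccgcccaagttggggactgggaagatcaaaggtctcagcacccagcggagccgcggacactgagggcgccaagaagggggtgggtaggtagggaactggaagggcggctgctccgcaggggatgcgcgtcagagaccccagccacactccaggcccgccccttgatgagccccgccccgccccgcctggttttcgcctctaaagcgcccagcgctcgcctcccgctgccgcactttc
The shared run GGGAATTTCCCTGG opens with GGGAATTTC, which are letters of the κB element bound by NF-κB dimers. It starts at position -71 in Cxcl1 and -97 in Cxcl2, counted from the annotated start. Searched on both strands of 32851 RefSeq promoters of the same length, the 14 letters occurred in 2, those of Cxcl1 and Cxcl2 themselves, from which the run was read. The 9 letters GGGAATTTC occurred in 85 promoters (0.259%). Downstream of this run both genes carried ATAAAAG, present in 5.42% of promoters, at position -34 in Cxcl1 and -57 in Cxcl2. The Cxcl12 promoter held none of these sequences. It had 5 matches to GGGCGG, the core of a GC box, which 35.7% of promoters contain, and 20 CpG dinucleotides against 10 in Cxcl1, 11 in Cxcl2 and a median of 7 over all promoters. RefSeq promoters were found for 6 of the 8 genes; those of Cxcl13 and Cx3cl1 did not hold GGGAATTTC either, and had 3 and 19 CpGs. These matches describe letters in a window and were not measured as binding sites.

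Values are log2 of the deposited RMA intensity, and a row of 5000 random probes on each array served as its background, at a log2 of 4.97 to 5.12. Median intensity was 60.4 to 63.1 per array. The hepatocyte markers were bright on every array, with mean log2 values of 15.08 to 15.18 on LPS/GalN arrays and 15.11 to 15.24 on LPS arrays. Arrays stood apart in markers of other tissues: 8 measured intestinal markers summed to 1399 to 1570 on LPS/GalN arrays, against 21850 and 24460 on LPS replicates 1 and 2 and 1868 on LPS replicate 3. The 4 measured thymus markers summed to 2649 and 1933 on LPS/GalN replicates 2 and 3 and 161.9 on replicate 1, against 117.2 to 166.5 on LPS arrays. Results are therefore also given without those 2 pairs of arrays for the chemokines and for some lists. Each of these fits leaves 1 mouse in a group, so a call lost there is not a result about that gene. The arrays hold bulk tissue, so fewer cells of a type and less RNA per cell cannot be told apart.

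Of the 7 measured chemokine genes, Cxcl1 and Cxcl2 fell and none rose, at an adjusted p under 0.05 in limma over 35574 features. Over all features the same test called 3.06% lower and 0.632% higher in LPS/GalN. The groups did not overlap in 5 genes: Cxcl1, Cxcl2 and Cxcl5 lay lower on every LPS/GalN array and Cxcl12 and Cxcl13 lay higher on every one. All LPS/GalN arrays lay below all LPS arrays in 11.1% of features and above them in 13.1%.

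**Figure D1:**
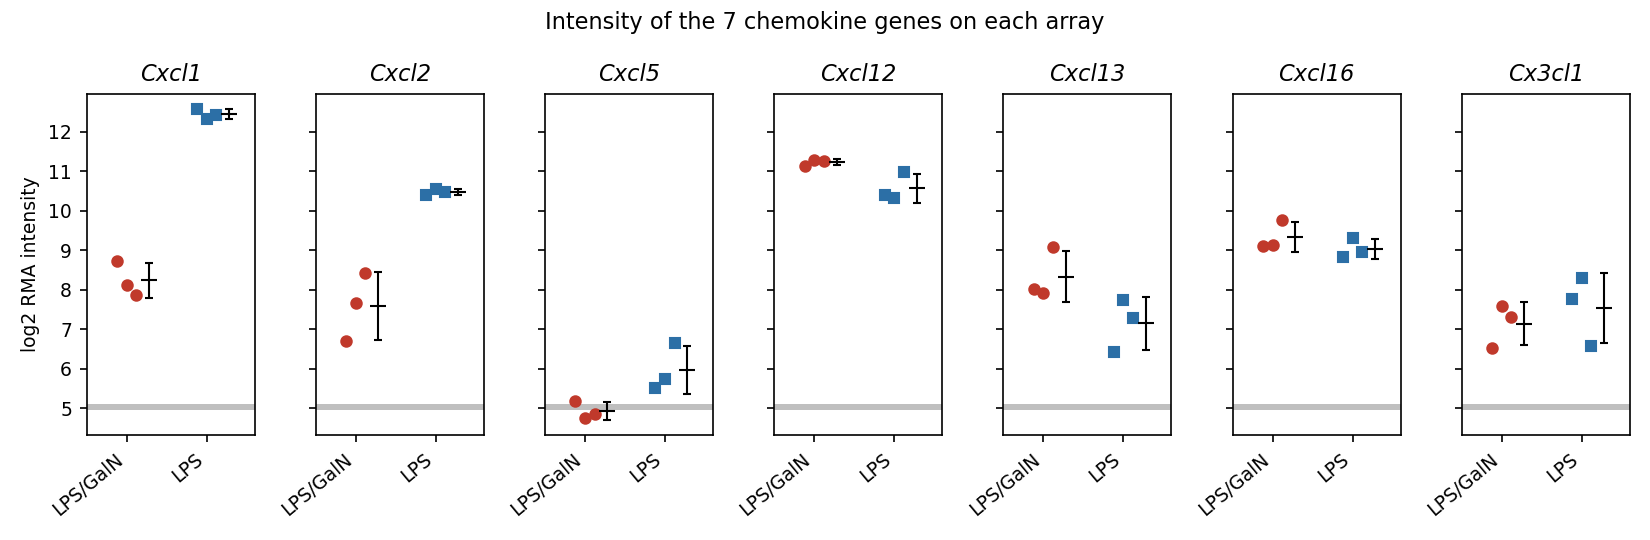
Log2 RMA intensity of the 7 measured chemokine genes on each array (brightest row of each gene), with LPS/GalN arrays as circles and LPS arrays as squares in replicate order, the group mean and SD as a black bar (n = 3 each), and the range of the random-probe background as a grey band. Cxcl1 and Cxcl2 are far lower on the LPS/GalN arrays, Cxcl5 lies near background there, Cxcl12 and Cxcl13 are higher without overlap, and Cxcl16 and Cx3cl1 overlap.

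Cxcl1, also called KC, a major neutrophil attractant of mice (chr5:91320311-91321587 in mm9), had log2 intensities of 8.73, 8.11 and 7.88 on LPS/GalN arrays and 12.57, 12.32 and 12.41 on LPS arrays. The highest LPS/GalN array lay 3.59 below the lowest LPS array. In linear terms Cxcl1 was 7.53 to 12.3 times background in LPS/GalN livers and 151 to 179 times background in LPS livers, so the transcript was still detected in every LPS/GalN mouse. It averaged 8.24 ± 0.44 in LPS/GalN and 12.43 ± 0.13 in LPS (SD, n = 3 each). The log2 difference was -4.19 ± 0.27 (SE), an 18.3-fold lower intensity, with a limma adjusted p of 0.000351 and a 95% confidence interval, unadjusted as are those that follow, of -4.82 to -3.56. Among all 35574 features it was the 44th largest fall in log2 terms. Without LPS replicates 1 and 2 the difference was -4.17 with an adjusted p of 0.06, in a fit that called no feature in either direction at that threshold and 3233 at an unadjusted p under 0.05. With LPS/GalN replicate 1 as the only mouse of its group the difference was -3.70 (adjusted p 0.0192).

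Cxcl2, also called MIP-2, a macrophage-derived attractant of neutrophils (chr5:91332950-91334602), had log2 intensities of 6.70, 7.67 and 8.42 on LPS/GalN arrays and 10.39, 10.55 and 10.47 on LPS arrays. All LPS/GalN arrays were lower, by at least 1.97, and they were spread over a wider range than the LPS arrays. The means were 7.60 ± 0.86 in LPS/GalN and 10.47 ± 0.08 in LPS (SD, n = 3 each). The difference of -2.87 ± 0.41 was 7.32-fold, with an adjusted p of 0.00728 and an interval of -3.81 to -1.94. A dimmer second row (chr5:91332924-91334964) read 5.03, 6.07 and 5.55 on LPS/GalN arrays, of which 2 were above background, and 6.86, 6.41 and 6.43 on LPS arrays. Its groups did not overlap either, but its difference of -1.02 ± 0.31 had an adjusted p of 0.137 over all rows. With the mean of both rows the gene's difference was -1.94 (adjusted p 0.0139). The Cxcl2 call was lost with background subtracted (-3.17, adjusted p 0.0859). The difference was -2.87 without LPS replicates 1 and 2 and -3.77 without LPS/GalN replicates 2 and 3.

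The 2 fallen genes did not vary together among the LPS/GalN mice. LPS/GalN replicate 1 had the highest Cxcl1 and the lowest Cxcl2 of its group, and replicate 3 the lowest Cxcl1 and the highest Cxcl2. The log2 gap of Cxcl1 over Cxcl2 was 2.03, 0.44 and -0.54 on the LPS/GalN arrays and 2.17, 1.77 and 1.94 on the LPS arrays. The LPS mice were thus alike in this gap and the LPS/GalN mice were not; the gap itself also depends on the probes of each row and has no meaning as a ratio of transcripts. Probe sequences were not used here, and cross-hybridization between these related genes was not tested.

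Cxcl5, which neutrophils also sense through CXCR2 and which is known mainly from epithelia and platelets (chr5:91188411-91190651), read 5.19, 4.77 and 4.86 on LPS/GalN arrays and 5.52, 5.74 and 6.66 on LPS arrays. It was above background on 1 of 3 LPS/GalN arrays and on 3 of 3 LPS arrays. The means were 4.94 ± 0.22 in LPS/GalN and 5.97 ± 0.61 in LPS (SD, n = 3 each). The difference of -1.03 ± 0.33 had an adjusted p of 0.153 and an interval of -1.79 to -0.27. It was -1.72 without LPS replicates 1 and 2 and -0.78 without LPS/GalN replicates 2 and 3. With 2 of 3 LPS/GalN arrays not above background, the size of this difference is not settled.

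Cxcl12, also called SDF-1 (chr6:117118604-117125032), had log2 intensities of 11.14, 11.29 and 11.25 on LPS/GalN arrays and 10.40, 10.32 and 10.98 on LPS arrays. All LPS/GalN arrays were higher, though LPS replicate 3 came within 0.16 of the lowest of them. The means were 11.23 ± 0.08 in LPS/GalN and 10.57 ± 0.36 in LPS (SD, n = 3 each). The difference of 0.66 ± 0.25, 1.58-fold higher, had an adjusted p of 0.218 and an interval of 0.09 to 1.24, which excludes a fall of the size seen for Cxcl1 or Cxcl2. With the variance fitted on a trend and robustly, the adjusted p was 0.0341. Without LPS replicates 1 and 2, where intestinal markers were high, the difference was 0.25. It was 0.57 without LPS/GalN replicates 2 and 3.

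Cxcl13, the B cell attractant (chr5:96385969-96390087), read 8.01, 7.91 and 9.07 on LPS/GalN arrays and 6.42, 7.75 and 7.29 on LPS arrays. At their nearest the groups lay 0.16 apart, and each held 1 array well away from the others. The means were 8.33 ± 0.64 in LPS/GalN and 7.15 ± 0.67 in LPS (SD, n = 3 each). The difference of 1.18 ± 0.43, 2.26-fold higher, had an adjusted p of 0.204 and an interval of 0.19 to 2.16. It was larger than the log2 difference of 97.7% of features, a position that carries no test. The difference was 1.04 without LPS replicates 1 and 2 and 0.86 without LPS/GalN replicates 2 and 3.

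Among markers of endothelial, stellate, Kupffer and B cells in the same livers, a few rose and most were uncalled. Of 13 measured markers of sinusoidal endothelium, 3 rose and none fell, with a median log2 difference of 1.07 against 0.05 over all features. The 3 were Pecam1 (1.39, adjusted p 0.0136), Tie1 (1.07, 0.0477) and Egfl7 (1.81, 0.0436). Each has 2 rows, 1 of them called over all rows, and the lower row gave 1.05, 0.32 and 1.17. Uncalled rows of Stab1 and Kdr went down to -0.80 and -0.58. The summed intensity of the 13 markers was 19990 to 24200 on LPS/GalN arrays and 9406 to 14330 on LPS arrays. LPS replicate 3, the LPS array with the most Cxcl12, had the highest of the LPS sums. None of the 13 was called without LPS replicate 1, LPS replicate 2 or LPS/GalN replicate 2, with medians of 0.85, 0.92 and 1.13. The median was 0.66 without LPS replicates 1 and 2 together and 1.10 without LPS/GalN replicates 2 and 3 together. The 10 stellate cell markers summed to 12510 to 14600 in LPS/GalN and 9695 to 11160 in LPS, with Ngfr higher by 1.46 (adjusted p 0.014), the other 9 uncalled and a median of 0.38. The Ngfr call was lost without LPS replicate 2 and without LPS/GalN replicate 3. The 10 Kupffer cell markers summed to 10440 to 13090 in LPS/GalN and 6120 to 8415 in LPS, with none called and a median of 0.71. B cell markers, 5 measured and none called, summed to 225.7 to 298.2 in LPS/GalN and 197.1 to 236 in LPS, which overlap. In every one of these lists each measured marker was above background on at least 1 array. The part of these markers in the Cxcl12 and Cxcl13 differences was not tested.

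Cxcl16, which is both a scavenger receptor for oxidised lipoprotein and the ligand of CXCR6 on NKT cells (chr11:70268688-70273367), read 9.10, 9.14 and 9.77 on LPS/GalN arrays and 8.82, 9.31 and 8.95 on LPS arrays. The groups overlapped. The means were 9.34 ± 0.38 in LPS/GalN and 9.03 ± 0.25 in LPS (SD, n = 3 each), a difference of 0.31 ± 0.27 with an adjusted p of 0.617 and an interval of -0.32 to 0.93. The difference was 0.39 without LPS replicates 1 and 2 and 0.07 without LPS/GalN replicates 2 and 3. A second row covering the same gene (chr11:70267890-70273486) gave 0.34 ± 0.28 (adjusted p 0.594). Another row described as Cxcl16 lies mostly past the end of the others (chr11:70273123-70279701), where RefSeq places the neighbouring gene Zmynd15. It read 6.93, 7.30 and 7.88 on LPS/GalN arrays and 6.49, 6.66 and 7.01 on LPS arrays, a difference of 0.65 ± 0.30 (adjusted p 0.313), and is reported apart as an uncertain row.

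Cx3cl1, the chemokine fractalkine (chr8:97296125-97306326), read 6.53, 7.59 and 7.31 on LPS/GalN arrays and 7.77, 8.29 and 6.57 on LPS arrays. The groups overlapped, and its 2 highest values were on the LPS arrays with high intestinal markers. The means were 7.14 ± 0.55 in LPS/GalN and 7.54 ± 0.88 in LPS (SD, n = 3 each). The difference was -0.40 ± 0.47 (adjusted p 0.722), with an interval of -1.48 to 0.68. Without LPS/GalN replicates 2 and 3 it was -1.02. Without LPS replicates 1 and 2 it turned to 0.57, so the data give no direction for this gene. The part of the intestinal markers in its values was not tested.

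**Figure D2:**
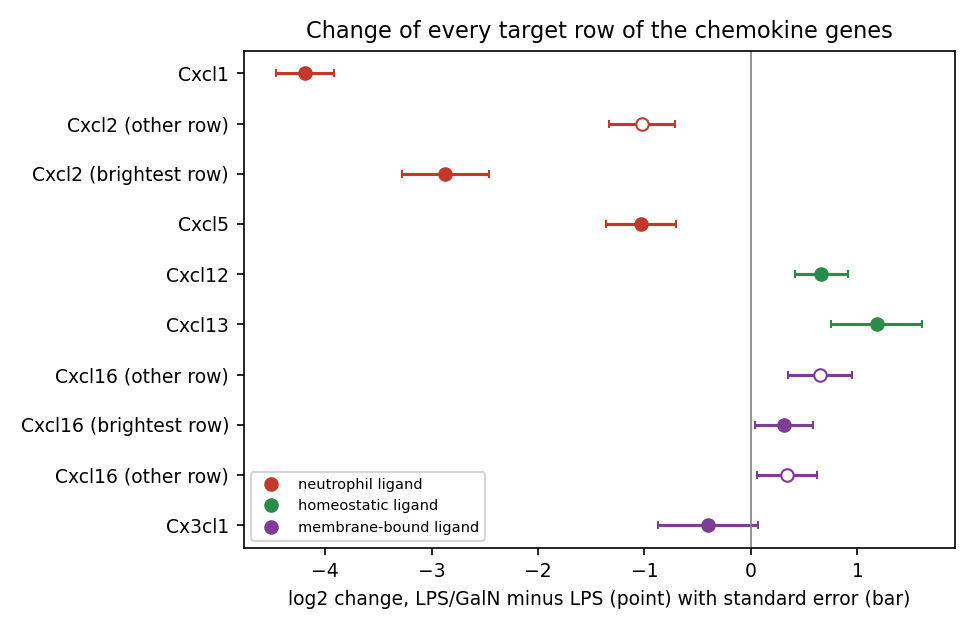
Log2 difference (LPS/GalN minus LPS, points) with its standard error (bars) for all 10 target rows of the 7 measured chemokine genes. Filled points are the brightest row of each gene and open points the other rows; the rows of the neutrophil ligands lie left of 0, those of Cxcl12, Cxcl13 and Cxcl16 right of it, and the bar of Cx3cl1 spans it.

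Set side by side, the neutrophil ligands had a mean log2 difference of -2.70 (3 genes), the homeostatic ligands 0.92 (2 genes) and the membrane-bound ligands -0.05 (2 genes). The mean log2 of the 3 neutrophil ligands minus that of the 2 homeostatic ligands was -2.70, -2.75 and -3.11 on LPS/GalN arrays and 1.08, 0.50 and 0.71 on LPS arrays. Each LPS/GalN array thus had the balance tipped to the homeostatic ligands relative to each LPS array, by -3.62 on average. No test was made on this score, since the genes were grouped with results known. With Cxcl5 and Cxcl13 left out the value was -4.19. It was -3.57 without LPS replicates 1 and 2 and -3.47 without LPS/GalN replicates 2 and 3.

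The neutrophil ligand genes lie in a chromosome 5 cluster with other CXC ligands, whose positions give a comparison among neighbours. From the start of Cxcl5, Ppbp lies 9.2 kb away, Pf4 13.1 kb, Cxcl3 26.8 kb, Cxcl15 35.2 kb, Cxcl1 131.9 kb and Cxcl2 144.5 kb. The 4 neighbours within the cluster that the rule does not name were uncalled. Pf4 and Ppbp, chemokines stored in platelets, had log2 differences of 0.65 ± 0.29 (adjusted p 0.297) and -0.17 ± 0.51 (adjusted p 0.905). Cxcl3, the closest relative of Cxcl1 and Cxcl2 among them, read 5.76, 6.43 and 5.10 on LPS/GalN arrays and 7.34, 7.82 and 6.02 on LPS arrays. Its difference of -1.30 ± 0.51 had an adjusted p of 0.237, and its groups overlapped through LPS replicate 3, the LPS array without high intestinal markers. Cxcl15, known from lung, differed by -0.50 ± 0.28 (adjusted p 0.413) and was above background on 1 of 3 LPS/GalN and 3 of 3 LPS arrays. Cxcl13 lies on the same chromosome but 5197.6 kb from Cxcl5, outside the cluster. Cxcl17, on the same list of 5 ligands outside the rule, was uncalled as well, and the median log2 difference of that list was -0.44. The list does not hold the interferon-induced ligands Cxcl9, Cxcl10 and Cxcl11, which attract T cells through CXCR3 and lie 1563.6, 1587.3 and 1600.8 kb from Cxcl5. All 3 fell, by 5.59 (adjusted p 0.000517), 2.74 (adjusted p 0.00438) and 5.03 (adjusted p 0.000667) on the log2 scale, where Cxcl10 averaged 12.70 in LPS/GalN and 15.44 in LPS, the second value being close to the array maximum. A fall was thus not particular to Cxcl1 and Cxcl2 among CXC ligands of chromosome 5.

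**Figure D3:**
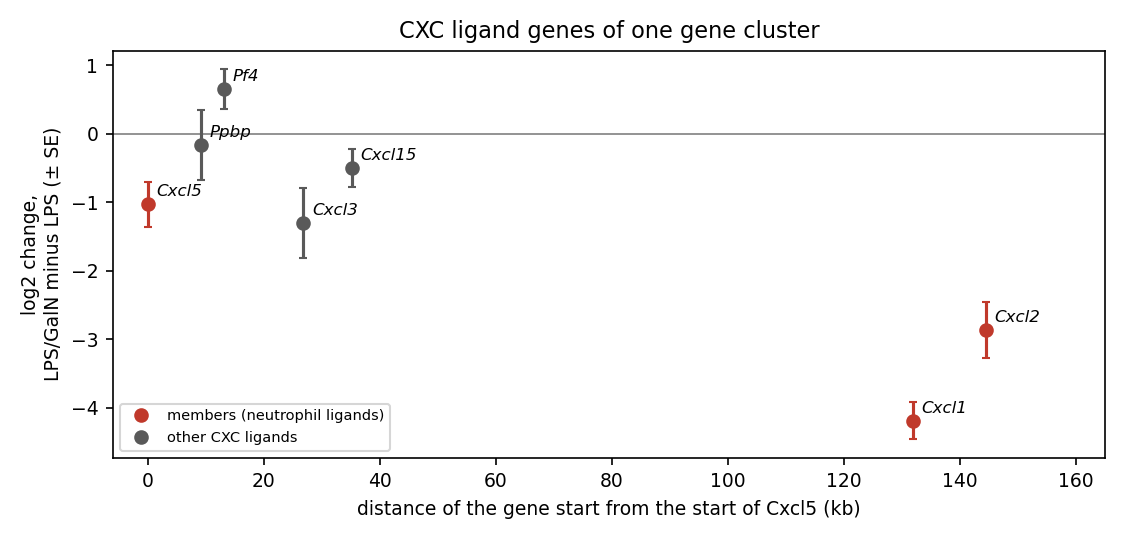
Log2 difference (LPS/GalN minus LPS) with its standard error for 7 CXC ligand genes of the chromosome 5 cluster, against the distance of each gene's start from that of Cxcl5 in kb. Cxcl1 and Cxcl2, at 131.9 and 144.5 kb, have the lowest values, and the genes within 35.2 kb of Cxcl5 lie between -1.30 and 0.65.

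The signalling genes upstream of the neutrophil ligands were mostly lower too. Of 15 measured genes of TLR4, interleukin-1, TNF and interleukin-17 signalling and their NF-κB feedback, 11 fell and none rose, with a median log2 difference of -2.12. The receptors and adaptors that fell were Il1r1 (-3.67, adjusted p 0.000558), Il17ra (-2.62, 0.00246), the TLR adaptors Myd88 (-2.45, 0.000943) and Ticam1 (-2.18, 0.0265), and Tnfrsf1a (-1.01, 0.0498). Among transcription factor genes, Nfkbiz (-2.16, adjusted p 0.00245), a coactivator needed by a subset of inflammatory genes, and Nfkb1 (-2.01, 0.00459) fell. The NF-κB inhibitors Tnfaip3 (-4.62, adjusted p 0.000245) and Nfkbia (-1.27, 0.0174) fell as well, and so did Zfp36 (-2.21, 0.00233), which promotes decay of AU-rich chemokine mRNAs. The cytokine Il1b fell by 2.12 (adjusted p 0.0253). With single arrays left out 7 to 10 of the 15 were called, 7 without LPS replicate 1, LPS replicate 2 or LPS/GalN replicate 3, and Tnfrsf1a passed in none of these fits. The median was -2.07 without LPS replicates 1 and 2 together and -1.54 without LPS/GalN replicates 2 and 3.

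Myd88 had log2 intensities of 10.75, 10.67 and 10.77 on LPS/GalN arrays and 13.10, 13.32 and 13.11 on LPS arrays. Il1r1 had 9.18, 8.33 and 8.55 on LPS/GalN arrays and 12.32, 12.44 and 12.29 on LPS arrays. Tnfaip3, which encodes the A20 protein, had 6.65, 6.49 and 6.41 on LPS/GalN arrays and 11.23, 11.26 and 10.92 on LPS arrays. These 3 genes were picked after values were seen. Their part in the Cxcl1 and Cxcl2 differences was not tested. Of the 6 measured genes listed for the homeostatic ligands, the alternative NF-κB subunits Nfkb2 (-1.73, adjusted p 0.00549) and Relb (-1.42, 0.0295) fell, against the direction of Cxcl12 and Cxcl13, and the other 4 were uncalled. The list's median log2 difference was -0.72. Only 1 of the 6 was called lower without LPS replicate 1, LPS replicate 2, LPS/GalN replicate 1 or LPS/GalN replicate 3. Another 1 was called higher when LPS/GalN replicate 1 was left out, a fit that keeps only the LPS/GalN arrays with high thymus markers. The median was -0.28 without LPS replicates 1 and 2 together and -0.89 without LPS/GalN replicates 2 and 3 together. The lists are themselves rich in genes that LPS is known to induce.

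**Figure D4:**
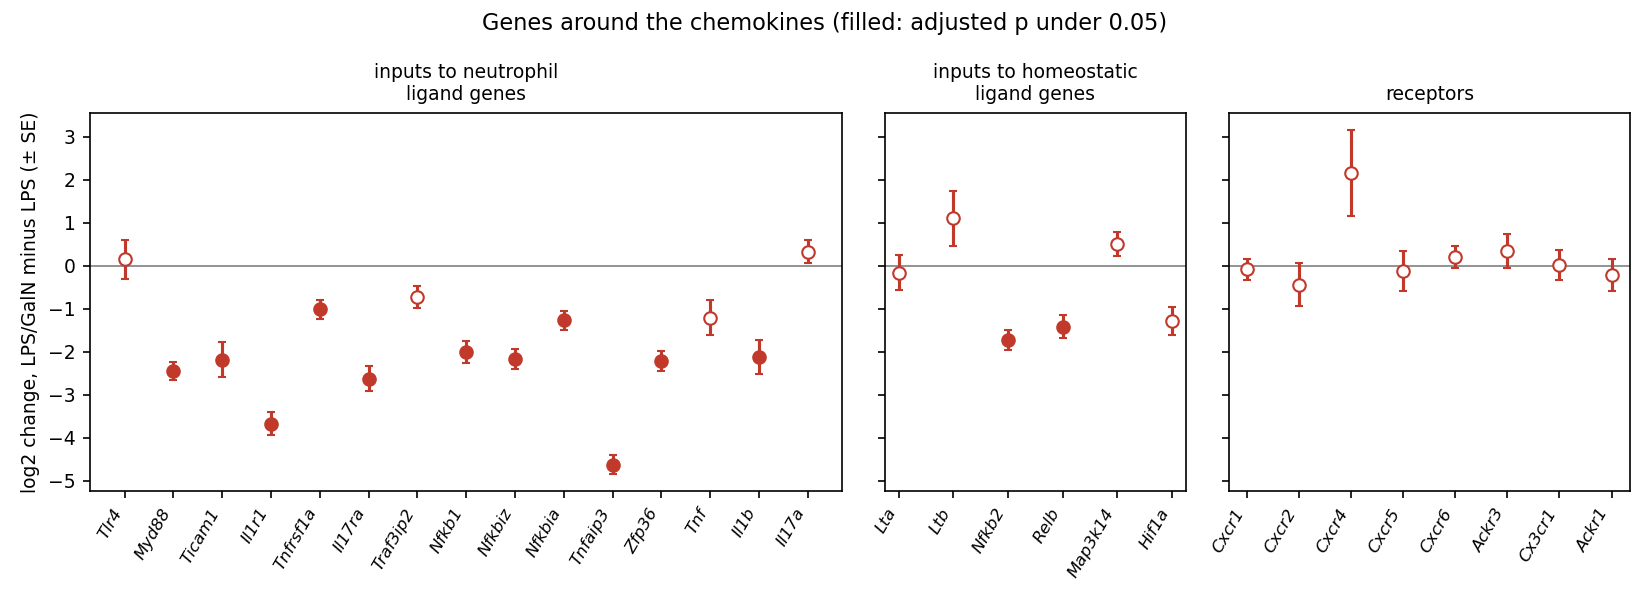
Log2 difference (LPS/GalN minus LPS) with its standard error for genes acting upstream of the neutrophil ligands (15 genes), upstream of the homeostatic ligands (6 genes) and for the chemokine receptors (8 genes). Filled points passed an adjusted p under 0.05: 11 in the first panel, 2 in the second and 0 in the third, all below 0.

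None of the 8 receptor genes passed the test, though 1 was called higher when LPS/GalN replicate 1 was left out. The neutrophil receptors Cxcr1 and Cxcr2 differed by -0.08 ± 0.24 (adjusted p 0.907) and -0.44 ± 0.50 (adjusted p 0.709). Cxcr4, the Cxcl12 receptor, read 5.27, 9.09 and 9.26 on LPS/GalN arrays and 6.54, 4.95 and 5.66 on LPS arrays. It was high on LPS/GalN replicates 2 and 3, the arrays with high thymus markers, and low on replicate 1; the difference of 2.15 ± 1.0 had an adjusted p of 0.316. The 8 T or NK cell markers, none called, summed to 586.1, 10850 and 6607 on LPS/GalN arrays and 552.4 to 823.4 on LPS arrays. With LPS/GalN replicate 1 left out, 6 of the 8 were called higher. The list's median of 2.52 became -0.47 without LPS/GalN replicates 2 and 3 together. The T cell genes Cd3e, Cd3d, Cd3g, Cd8a, Cd4 and Lck were high on the same LPS/GalN arrays as Cxcr4, and the NK cell genes Nkg7 and Ncr1 were not. The part of these markers in the Cxcr4 values was not tested. Ackr3, the Cxcl12 scavenger receptor, differed by 0.34 ± 0.39, and Ackr1, an endothelial chemokine-binding receptor, by -0.21 ± 0.37. Cxcr5 for Cxcl13 differed by -0.12 ± 0.46, Cxcr6 for Cxcl16 by 0.21 ± 0.26 and Cx3cr1 for Cx3cl1 by 0.02 ± 0.34, the last being above background on 2 of 3 LPS/GalN arrays and 1 of 3 LPS arrays. Adjusted p was between 0.709 and 0.983 for these 5 genes. Cxcr6 and Ackr3 were above background on 2 of 3 arrays of each group, and Cxcr4 on 3 of 3 LPS/GalN and 2 of 3 LPS arrays. Cxcr1 averaged 5.40 in LPS/GalN and 5.48 in LPS, little above background. Near background, an uncalled difference does not show that a gene was unchanged. Of 7 measured proteases that shed or trim chemokines, 0 passed the test, with a median log2 difference of -0.01.

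Most neutrophil markers were uncalled. Over all features the same test called 3.06% lower. Of 14 measured, S100a8 (-1.66, adjusted p 0.0131) and S100a9 (-1.55, 0.014), which encode the calprotectin subunits, fell and none rose, with a median of -0.44. Neither was called without LPS replicate 2 or without LPS/GalN replicate 2, where 0 of 14 passed with medians of -0.16 and -0.13. The median was -0.3 without LPS replicates 1 and 2 together and 0.02 without LPS/GalN replicates 2 and 3 together. The summed intensity of the 14 markers was 2504 to 4093 on LPS/GalN arrays and 4497 to 7128 on LPS arrays. S100a9 was the brightest of them on every LPS array and weighs most in those sums. The mean log2 of the 14 markers overlapped, at 6.57 to 7.43 on LPS/GalN arrays and 7.19 to 7.71 on LPS arrays. Some markers went the other way, Padi4 furthest, at 0.96 (adjusted p 0.14). The 5 measured cholangiocyte markers summed to 1532 to 1974 in LPS/GalN and 3338 to 5275 in LPS, and 1 of them, Sox9, fell by 2.91 (adjusted p 0.00362). Krt19 and Epcam, which intestinal epithelium also expresses, were high only on LPS replicates 1 and 2. Krt19 read 4.88 to 5.46 on LPS/GalN arrays and 9.44, 9.15 and 5.19 on LPS arrays, and Epcam 6.13 to 6.96 on LPS/GalN arrays and 11.24, 10.95 and 6.59 on LPS arrays. Sox9 read 6.93 to 8.01 on LPS/GalN arrays and 9.86, 10.45 and 10.73 on LPS arrays. The list's median was -2.81, and -0.11 without LPS replicates 1 and 2. It was -2.34 without LPS/GalN replicates 2 and 3. Hepatocyte markers had a median of -0.07 and none of 10 was called. Whether the neutrophil or cholangiocyte markers had a part in the Cxcl1 and Cxcl2 differences was not tested.

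The genes whose pattern over the 6 arrays was most like that of each chemokine were listed by Pearson correlation of log2 intensity among 12054 named features of more than median brightness. These correlations are a description, largely set by the difference between the groups for Cxcl1 and Cxcl2. For every chemokine they are the highest picked from 12054 features over only 6 arrays, and none was tested. For Cxcl1 they were metallothionein 1 (r = 0.9997), the TLR adaptor Tirap (0.9996) and protein tyrosine phosphatase 4a1 (0.9986), whose log2 differences were -1.90, -1.99 and -1.81. For Cxcl2 they were viral envelope protein G7e (0.9988), chromatin modifying protein 4b (0.9966) and schlafen 4 (0.9964). For Cxcl12 they were protocadherin gamma subfamily A 10, U2AF 2 and an alanyl-tRNA synthetase domain protein (0.9915 to 0.9939). Those of Cxcl13 were phosphorylase kinase alpha 2, UHM kinase 1 and a coiled-coil protein (0.9917 to 0.9943). Those of Cxcl16 were a transcript similar to nitzin, malate dehydrogenase 1 and histone deacetylase 10 (0.9892 to 0.9943). Those of Cx3cl1 were platelet phosphofructokinase, an erythrocyte band protein relative and Fam170b (0.9744 to 0.9914). Among the members themselves, Cxcl1 and Cxcl2 correlated at 0.90 over the 6 arrays and Cxcl1 and Cxcl12 at -0.85. Cxcl5 was left out of this listing because it was not above background on every array.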

How the data were processed

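Liver RNA of 6 mice was measured on 6 single-colour NimbleGen arrays, in 2 groups of 3 taken from the treatment in the labels. Per the labels, the mice of a group came from separate treatments. The authors deposited RMA intensity for every target, per the file headers, on a linear scale. RMA, named in the submitters' processing notes, corrects background, normalizes arrays and summarises probes; which settings it ran with is not given in the sources used here. Because RMA normalizes the arrays to each other, a general rise or fall of RNA was not measurable. The number of arrays limits the precision.

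Intensities were converted to log2. Rows were joined into features by gene symbol, or by name and chromosome, keeping the row with the highest mean over the 6 arrays, which left 35574 features. A gene symbol was found for 9235 of 44170 rows, from the descriptions, RefSeq names and a hand-made table of 194 names. The groups were compared with limma 3.58.1 in R 4.3.3 (lmFit and eBayes, group as the only term, 3.986 prior degrees of freedom, two-sided), with Benjamini-Hochberg adjustment over all features and a threshold of 0.05. The script was tested on simulated data. Signed values are LPS/GalN minus LPS, on the log2 scale, and no filter on dim features was applied.

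The genes and lists were chosen with earlier results of these data known. The text names the 8 chemokine genes, every receptor, every other listed gene past the threshold, and the 3 most similar named features per chemokine. The other ligands on chromosome 5, the markers Krt19, Epcam and Padi4, and the T and NK cell genes were picked after values were seen. So were the values by array of Tnfaip3, Myd88, Il1r1 and Sox9. Gene positions are those of the files (mm9), and promoter sequences are those of RefSeq GRCm38.p6.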

Additional observations from a re-analysis of the deposited data

How the results depend on the processing

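Leaving out each array in turn left the same calls: 2 of the 7 genes were lower and 0 higher. The log2 difference ranged from -4.44 to -4.01 for Cxcl1, -3.29 to -2.42 for Cxcl2, -1.26 to -0.69 for Cxcl5, 0.54 to 0.87 for Cxcl12, 0.81 to 1.47 for Cxcl13, 0.09 to 0.45 for Cxcl16 and -0.89 to -0.03 for Cx3cl1. The number of genes called lower was 1 with random-probe background subtracted. An alternative chosen after seeing the data left out LPS replicates 1 and 2, which leaves 1 LPS mouse. There Cxcl1 was -4.17, Cxcl2 -2.87 and Cx3cl1 0.57. The number called higher was 1 (Cxcl12) with trend and robust fitting. The neutrophil minus homeostatic value of -3.62 became -3.31 with the mean of all rows, -5.02 with background subtracted, where a floor sets Cxcl5 on 2 LPS/GalN arrays, and -4.19 without Cxcl5 and Cxcl13, and ranged from -3.75 to -3.46 with single arrays left out. In these settings Cxcl2 was -1.94 with the mean of all rows and Cxcl5 was -4.38 with background subtracted. With the replicate number as a block, Cxcl1 stayed at -4.19 (adjusted p 0.00611) and Cxcl2 at -2.87 (0.0213); deviations of same-numbered mice correlated at 0.002, -0.002 and 0.027, and mice did not all correlate best with their own number, so the numbers were not taken as pairs. Over all features the main counts of 1088 lower and 225 higher became 814 and 114 with that block, 1605 and 905 with trend and robust fitting, 632 and 157 with background subtracted, 1316 and 385 with 16 added before log2, and 1346 and 643 in the deposited value table of 14719 features, where Cxcl5 has no value. They were 647 to 1096 and 37 to 624 with single arrays left out, and 647 and 691 lower without LPS replicates 1 and 2 singly. A slide or scan block was not run, as the headers give none. The size of the Cxcl5 difference is limited by background.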
